A study of Rattus norvegicus with 18 samples.

Results

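Liver RNA of rats at 12 h and 1 day after birth was compared with liver RNA taken just before birth or 30 min after it. The later pool held the 6 arrays titled 12 h or 1 day after birth, and the earlier pool held the 6 arrays titled E21 or 30 min after birth. These 12 arrays are part of a series of 18, and the other 6 (3 at 4 h, 3 at 7 days) entered the estimate of the spread and served as reference ages. All animals were Sprague Dawley rats, with 3 arrays at each age from 3 dams. The E21 fetuses (embryonic day 21) were taken by C-section and killed before they breathed, and the other ages were timed from births that were watched. No label says whether the pups had suckled, how many pups made up a sample or what their sex was, so the later pool is called here by its ages. Whole flash-frozen liver was used, and in such bulk samples fewer cells of a type and less RNA per cell cannot be told apart.

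Before birth the placenta supplies the liver with glucose, and after birth the pup depends first on its glycogen and then on milk, which is rich in fat. The newborn liver is known for taking up fatty acids, burning them in mitochondria and peroxisomes, making ketone bodies and releasing glucose. The nuclear receptor PPAR alpha senses fatty acids and switches on genes of fat oxidation, while the transcription factors of the SREBP family switch on the synthesis of cholesterol and fatty acids when sterols or energy stores call for it.

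Of 18926 genes, 2114 (11.2%) passed the limma test between the pools at an adjusted p under 0.05, 1320 of them (6.97%) higher and 794 (4.2%) lower at 12 h and 1 day. Differences are given as log2 of the later over the earlier pool ± the standard error from limma's moderated variance, with n = 6 arrays a pool, on the scale of the deposited intensities. The later pool lay wholly above or wholly below the earlier one for 1001 genes (5.29%), 926 of which passed. Pearson correlations over genes were 0.988 to 0.994 between arrays of one age, 0.985 to 0.993 between the 2 ages of a pool and 0.976 to 0.986 between pools. The first principal component of the 12 arrays held 38.7% of the variance and separated the pools. The genes of albumin and alpha-fetoprotein, Alb and Afp, read 19.92 to 19.93 on all 12 arrays, the ceiling of the deposited values, and no change in them can be read. For dim genes, 168 readings of 14 genes of the pancreas had a 95th percentile of 6.66, and a pool at or below that level is called dim. The median gene had a mean of 6.35, below that level. The shares of all genes set beside the lists thus count many dim genes, and shares over brighter genes alone are not given. Where all 6 arrays of the lower pool were dim, the difference is given as a bound, with "at least".

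The 2 ages within a pool were close. Between 30 min and E21 no gene passed in limma (0.0% of genes), although 1392 had an unadjusted p under 0.05. With array weights 15 genes passed, and without E21 replicate 1 there were 8. Between 1 day and 12 h only 7 genes (0.037%) passed, among them Egfr, the receptor of epidermal growth factor, at 1.73 ± 0.25 (adjusted p = 0.0223), and Hdc. Taken as 2 age pairs that share no array, 12 h against E21 gave 1124 genes (5.94%) and 1 day against 30 min gave 870 (4.6%). The 406 genes found in both are 36.1% of the first list and 46.7% of the second, and all 406 changed in the same direction.

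Most of the called differences were under 1 log2. Of the 2114 genes, 1644 (77.8%) differed by less than 1 log2, that is by less than a doubling, with 1087 higher and 557 lower. The median called difference was 0.58 and the smallest 0.17. In the comparisons of 3 against 3 arrays the share under 1 log2 was 60.3% for 12 h against E21 and 54.3% for 1 day against 30 min. The median standard error over genes was 0.15 there against 0.11 for 6 against 6. All comparisons used the same variance for a gene, so this gap is set by the number of arrays. Of the 2760 genes with a pooled difference of 0.25 to 0.5, 799 (28.9%) passed, against 536 of 840 (63.8%) between 0.5 and 0.75 and 266 of 339 (78.5%) between 0.75 and 1. Below 0.25 only 43 of 14472 genes did. Below 2 log2 the called genes of each size had smaller median errors than all genes of that size, with 0.09 against 0.13 between 0.25 and 0.5. This follows from the test, in which a call at a given size depends on the error. From 2 log2 up the medians were equal. At the other end, 120 genes differed by 2 log2 or more.

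**Figure D1:**
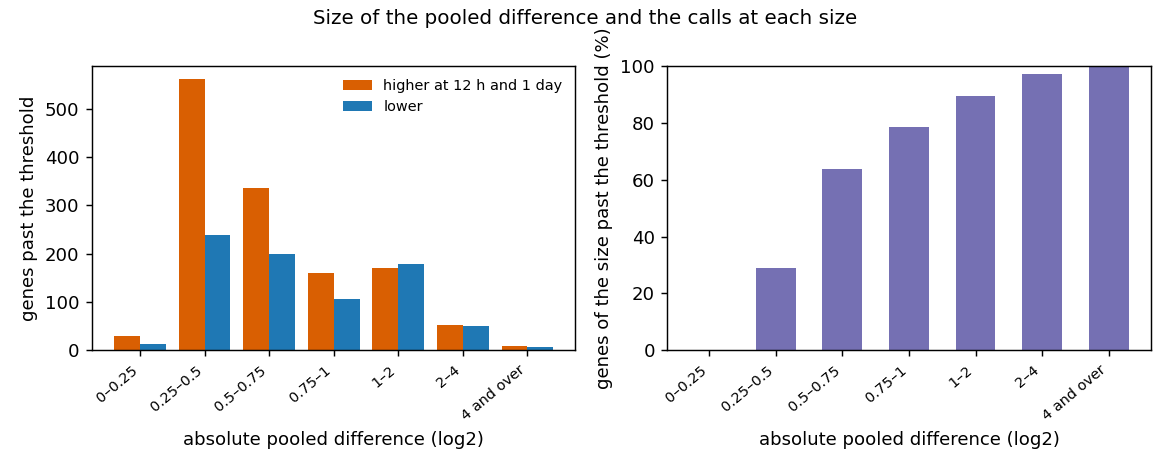
Left, the number of genes past the threshold by the absolute size of the pooled difference in log2 (orange, higher at 12 h and 1 day; blue, lower). Right, the percentage of all genes of that size that passed, from 0.297% below 0.25 to 100% at 4 and over; the bins from 0.25 to 1 hold most calls.

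Among the 8 largest differences in each direction were genes of lipid handling, a hormone subunit and the enzyme of histamine synthesis. Inhbe encodes the beta E subunit of inhibins and activins, a liver hormone. It read 5.61, 8.70 and 9.10 (lowest, median, highest) in the earlier pool and 14.43, 16.72 and 18.84 in the later pool. The difference of 8.57 ± 0.71 (adjusted p = 2.27e-06) was the largest of all called genes, and no later array came near an earlier one. Slc34a2, a sodium-phosphate cotransporter, rose by 6.20 ± 0.43 (adjusted p = 4.65e-07), from 6.43 to 7.18 in the earlier pool to 10.65 to 14.45 in the later one. Abhd2, a lipid hydrolase, read 10.94, 12.03 and 12.62 before and 15.83, 16.38 and 16.90 after. Its difference of 4.50 ± 0.20 was the largest relative to its error among the 16 genes of large change. Slc25a30, a mitochondrial carrier, rose by 4.42 ± 0.43, and Cyp3a23-3a1, a drug-metabolizing cytochrome P450, by 4.86 ± 0.60, from 10.89 to 14.90 in the earlier pool to 18.48 to 18.98 in the later one.

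In the other direction, Hdc makes histamine from histidine. It read 15.68, 18.41 and 19.47 in the earlier pool and 7.38, 9.74 and 14.02 in the later pool, a fall of 7.66 ± 0.59 on the log2 scale (adjusted p = 1.21e-06). Within the later pool 1 day was lower than 12 h, by 5.53 ± 0.83 on the log2 scale (adjusted p = 0.0288). Of the 10 mast cell and basophil markers measured, which include Hdc, Kit also passed (−0.31 ± 0.09, adjusted p = 0.0415), a call that held in 2 of the 12 fits that left out 1 array. Both pools were dim for 7 of the 10, and Cpa3, Tpsab1 and Cma1, which define mast cells, had means of 6.41, 4.69 and 4.41 in the earlier pool. The summed intensity of the list, nearly all of it Hdc, ran from 53100 to 726000 in the earlier pool and from 674 to 17000 in the later one. Hif3a, a member of the hypoxia-inducible factors, read 10.63, 11.75 and 12.85 before and 7.10, 7.43 and 8.25 after (−4.30 ± 0.34, adjusted p = 1.39e-06). Lpin1, a phosphatidate phosphatase of triglyceride synthesis that also acts as a coactivator, read 13.47, 15.10 and 15.94 before and 8.68, 10.67 and 11.20 after (−4.62 ± 0.31, adjusted p = 3.19e-07).

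**Figure D2:**
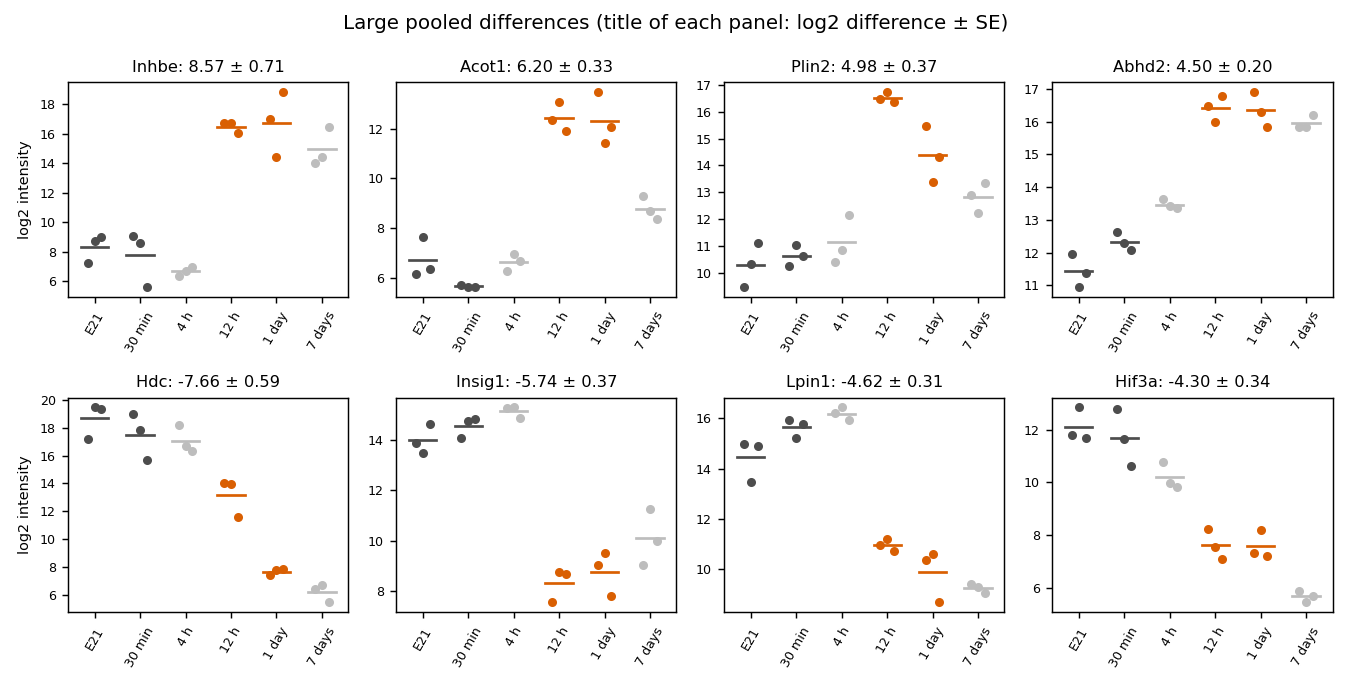
Log2 intensity of 8 genes on each of the 18 arrays by age (points, arrays; lines, age means; dark grey, earlier pool; orange, later pool; light grey, ages outside the pools). The rule that chose the genes asked for pools that do not overlap, so the 6 orange points lie clear of the 6 dark points in all 8 panels. The 4 h points of Inhbe, Acot1, Insig1 and Lpin1 lie on the side of the earlier pool.

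Of 22 measured genes known as targets of PPAR alpha, 12 rose at 12 h and 1 day, none fell and 10 did not pass. Of all genes 6.97% were higher. This list and the others were made with earlier results of these data known, so their counts beside the share of all genes are descriptions. The 22 had a median difference of 1.31 where the median of all genes was 0.01. Acot1, a cytosolic enzyme that splits fatty acyl-CoA, read 5.62, 5.92 and 7.63 in the earlier pool and 11.42, 12.21 and 13.47 in the later pool. The difference was 6.20 ± 0.33 (adjusted p = 4.04e-08), or 5.56 with dim arrays set to 6.66. Its mitochondrial relative Acot2 rose by 5.11 ± 0.28, from 6.66 to 8.33 up to 11.63 to 13.35. Acot1 and Acot2 are close in sequence, and whether their probes read each other's RNA was not tested. Plin2, which coats lipid droplets, read 9.46, 10.48 and 11.09 before and 13.38, 15.91 and 16.73 after, a rise of 4.98 ± 0.37 (adjusted p = 9.65e-07). Cpt1a, the enzyme that admits long-chain fatty acids to mitochondria, rose by 3.33 ± 0.35 (adjusted p = 2.3e-05). Among members chosen after their values were seen, Angptl4, an inhibitor of lipoprotein lipase, differed by 2.82 and Slc25a42, a mitochondrial coenzyme A carrier, by 3.17. The omega-hydroxylases Cyp4a1 (1.36), Cyp4a2 (0.60) and Cyp4a8 (0.23) did not pass, nor did Pdk4 at −0.65 ± 0.39 (adjusted p = 0.375), which restrains pyruvate dehydrogenase.

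The promoters of 3 PPAR alpha targets are shown because they hold the core of the PPAR response element while their RNA behaved differently. The search used RefSeq promoters of build GRCr8, 250 bases before to 50 bases after the gene start, 5′ to 3′ on the gene's strand. The letters searched were GGNCANAGG on both strands, and capitals mark the match. A promoter was found for 19 of the 22 targets, and 3 of them (15.8%) held a match, against 2243 of 27457 promoters (8.17%) in all. Acot4, a peroxisomal acyl-CoA thioesterase, rose by 3.62 ± 0.30 (adjusted p = 2.27e-06), from 9.45, 10.33 and 10.75 to 12.81, 13.95 and 14.62. Fabp1, the fatty acid carrier of the hepatocyte, rose by 2.29 ± 0.36 (adjusted p = 0.000655), from 14.12, 14.98 and 16.79 to 16.42, 17.39 and 18.23, with an overlap of the pools. Pdk4 read 11.69, 11.85 and 13.95 before and 10.04, 11.78 and 12.81 after. These 3 genes are named because their promoters held a match, and a match is a description of the letters.
Acot4 (chr6:109399604-109399903, plus strand): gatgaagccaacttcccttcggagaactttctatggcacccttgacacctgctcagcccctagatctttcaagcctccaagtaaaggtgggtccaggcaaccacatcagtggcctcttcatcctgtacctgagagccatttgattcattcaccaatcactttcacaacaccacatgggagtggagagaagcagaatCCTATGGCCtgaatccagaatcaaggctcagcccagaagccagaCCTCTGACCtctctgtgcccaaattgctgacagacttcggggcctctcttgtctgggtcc
Fabp1 (chr4:104749090-104749389, plus strand): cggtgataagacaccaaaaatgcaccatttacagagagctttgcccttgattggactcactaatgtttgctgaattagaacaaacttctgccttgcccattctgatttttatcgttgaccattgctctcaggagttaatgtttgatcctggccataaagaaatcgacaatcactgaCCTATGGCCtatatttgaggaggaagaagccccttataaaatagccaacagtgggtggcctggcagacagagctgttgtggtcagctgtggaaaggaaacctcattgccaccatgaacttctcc
Pdk4 (chr4:34568280-34568579, minus strand): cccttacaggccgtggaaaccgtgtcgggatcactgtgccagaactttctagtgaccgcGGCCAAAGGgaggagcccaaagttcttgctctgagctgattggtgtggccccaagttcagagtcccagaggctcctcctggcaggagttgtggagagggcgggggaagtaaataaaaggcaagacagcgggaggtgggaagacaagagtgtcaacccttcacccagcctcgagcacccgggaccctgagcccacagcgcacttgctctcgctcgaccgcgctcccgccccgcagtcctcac
The Acot4 promoter holds 2 matches, both on the opposite strand, and Fabp1 holds 1, also on the opposite strand. Acot4 and Fabp1 share the matched letters CCTATGGCC, and the match of Pdk4 reads GGCCAAAGG on the gene's own strand. The same search for the core of the sterol regulatory element, TCACNCCAC, found it in 0 of 18 promoters of cholesterol genes (1.13% of all promoters). TGACGTGG, the unfolded protein response element, was in 1 of 22 promoters of endoplasmic reticulum (ER) chaperones (0.637% of all).

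Fat oxidation in mitochondria and peroxisomes was described by its enzymes and transporters. Of 22 genes of fatty acid oxidation and ketogenesis, 12 were higher and 1 lower, with a median of 0.69, and 6 of the 12 rose by less than 1 log2. The list median was 0.35 for 12 h against E21 and 0.99 for 1 day against 30 min. It was −0.56 for 30 min against E21, and the pools did not overlap in 6 of the 22. Hadh, which oxidizes short-chain hydroxyacyl-CoA, read 13.95, 14.57 and 14.97 in the earlier pool and 15.81, 16.07 and 16.68 in the later pool (1.59 ± 0.17, adjusted p = 2.7e-05). Acadl, the long-chain acyl-CoA dehydrogenase, rose by 1.32 ± 0.14, from 13.96, 14.36 and 14.96 to 15.22, 15.60 and 16.25. The members with the smaller rises, given here because they are moderate, were Hadha (0.54), Etfdh (0.66), Acadvl (0.75), Acadm (0.87), Bdh1 (0.90) and Acat1 (0.99), which serve the mitochondrial trifunctional protein, electron transfer, the first oxidation step and ketone body metabolism. Echs1, the short-chain enoyl-CoA hydratase, went the other way (−0.82 ± 0.17, adjusted p = 0.00489). In peroxisomes 7 of 19 genes rose and none fell. Crot, which attaches carnitine to medium-chain acyl groups for export, rose by 3.62 ± 0.33 (adjusted p = 5.93e-06), from 10.02, 10.77 and 12.34 to 13.98, 14.61 and 15.32. The fatty acyl transporters of the peroxisomal membrane, Abcd2 and Abcd3, rose by 2.02 ± 0.24 and 1.83 ± 0.22.

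Of 22 genes of cholesterol synthesis and uptake, 17 fell and 1 rose, with a median of −1.57, and the pools did not overlap in 15. Insig1 holds the SREBP precursor in the ER and is itself an SREBP target. It read 13.47, 14.36 and 14.85 in the earlier pool and 7.53, 8.70 and 9.50 in the later pool, a difference of −5.74 ± 0.37 (adjusted p = 2.4e-07). Its relative Insig2 was the 1 member above, at 0.91 ± 0.26 (adjusted p = 0.032). That call was lost without any of E21 replicate 2, 30 min replicate 1, 12 h replicates 2 or 3 and 1 day replicates 2 or 3, with values of 0.75 to 1.01 over all 12 omissions. Srebf2, the transcription factor that drives the pathway, read 9.97, 10.16 and 10.35 before and 8.58, 8.63 and 8.90 after, a smaller but tight difference of −1.46 ± 0.12 (adjusted p = 2.27e-06). Among the enzymes, Fdft1, squalene synthase, fell by 3.53 ± 0.32 on the log2 scale, Lss, which closes the sterol rings, by 3.83 ± 0.52, and Msmo1, which removes methyl groups from sterols, by 4.10 ± 0.45. The mevalonate enzymes Mvk (−0.91), Pmvk (−0.91) and Mvd (−0.66), chosen after their values were seen, differed by less than 1 log2. Fdps (−0.50), Sc5d (−0.32), Nsdhl (−0.19) and Scap (−0.13) did not pass.

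Fatty acid synthesis split by step, with 10 of 21 genes lower and 3 higher. Its list median was −0.60 for 12 h against E21 and −1.47 for 1 day against 30 min. On E21 replicate 1 the list median was −1.1 relative to the earlier pool, level with the lowest later array. Scd2, which desaturates saturated fatty acids, read 14.98, 17.75 and 18.46 before and 10.45, 10.88 and 11.81 after (−6.44 ± 0.43, adjusted p = 3.18e-07). Its paralog Scd fell by 4.52 ± 0.72, with an overlap of the pools (9.34 to 15.53 before, 6.31 to 11.37 after). Whether the probes of Scd2 and Scd read each other's RNA was not tested. Fasn, fatty acid synthase, fell by 3.87 ± 0.64 on the log2 scale, and Acaca, which commits acetyl-CoA to fat, by 2.26 ± 0.26. Of the 5 elongases in the list 3 rose, and Elovl6 (−0.65) and Elovl7 (−0.16) did not pass. Elovl5, which lengthens polyunsaturated fatty acids, rose by 2.59 ± 0.24 (adjusted p = 6.74e-06), from 12.38, 12.83 and 13.80 to 15.30, 15.56 and 16.08. Elovl2 rose by 1.37 ± 0.31 and Elovl1 by 0.47 ± 0.10. Of 34 genes of triglyceride storage, lipid droplets and very low density lipoprotein, 10 rose and 4 fell. Dgat1, which completes triglycerides, rose by 0.93 ± 0.11 (adjusted p = 5.26e-05) and Agpat3, an acyltransferase of glycerolipid synthesis, by 0.97 ± 0.12. Abhd5, the activator of the lipase that empties droplets, fell by 2.34 ± 0.30 on the log2 scale. Lpin2, a relative of Lpin1, fell by 1.02 ± 0.16.

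Genes of glucose metabolism moved in both directions, beside 6.97% of all genes higher and 4.2% lower. In gluconeogenesis 5 of 17 rose and 3 fell, and 1 fell without 12 h replicate 1. Gk, glycerol kinase, read 11.90, 12.71 and 13.33 in the earlier pool and from 15.31 to 16.24 in the later one (3.21 ± 0.19, adjusted p = 6.55e-08). Gpd1, which takes the glycerol carbon on to glycolysis intermediates, rose by 3.49 ± 0.31, and Fbp1, fructose bisphosphatase, by 1.42 ± 0.15. Pck1, the cytosolic step from oxaloacetate to phosphoenolpyruvate, read 12.48, 15.58 and 18.15 before and 17.08, 17.66 and 18.06 after. Its difference of 2.14 ± 0.80 did not pass (adjusted p = 0.11), but it was 3.04 and passed (adjusted p = 0.00147) without E21 replicate 1. G6pc1, the last step of glucose release, did not pass either (1.21 ± 0.56, adjusted p = 0.209). In glycolysis 3 of 25 rose, Ldha (1.60 ± 0.17), Slc16a1 (1.20 ± 0.16) and Ldhb (1.28 ± 0.31), which make and carry lactate. Of the 4 that fell, Pfkfb1, which sets the level of fructose 2,6-bisphosphate, differed by −2.49 ± 0.27 and Slc2a1, a glucose transporter of fetal tissue, by −1.83 ± 0.27. Glycogen genes fell in 6 of 15 and rose in none, among them Pygl, liver glycogen phosphorylase (−1.47 ± 0.19), Ugp2, which makes UDP-glucose (−1.62 ± 0.24), and Gbe1, the branching enzyme (−1.81 ± 0.34).

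Amino acid breakdown fell in 17 of 44 genes and rose in none, with a median of −0.64. Fah, the last enzyme of tyrosine breakdown, read 15.46, 15.74 and 16.22 before and 13.90, 14.53 and 14.70 after (−1.35 ± 0.16, adjusted p = 7.06e-05). Mmut, methylmalonyl-CoA mutase, fell by 1.42 ± 0.17 on the log2 scale and Mccc1, a subunit of the leucine-degrading methylcrotonoyl-CoA carboxylase, by 1.13 ± 0.14. In this list 4 of the 17 falls were under 1 log2. Of all genes 4.2% were lower and 11.2% passed in either direction. The urea cycle had 1 of 10 members lower, Otc, ornithine transcarbamylase (−1.15 ± 0.25, adjusted p = 0.00632), and the median of the 10 was −0.62. The number lower was 2 without any of E21 replicates 1 or 3, 30 min replicates 2 or 3, 12 h replicate 2 and 1 day replicates 2 or 3.

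**Figure D3:**
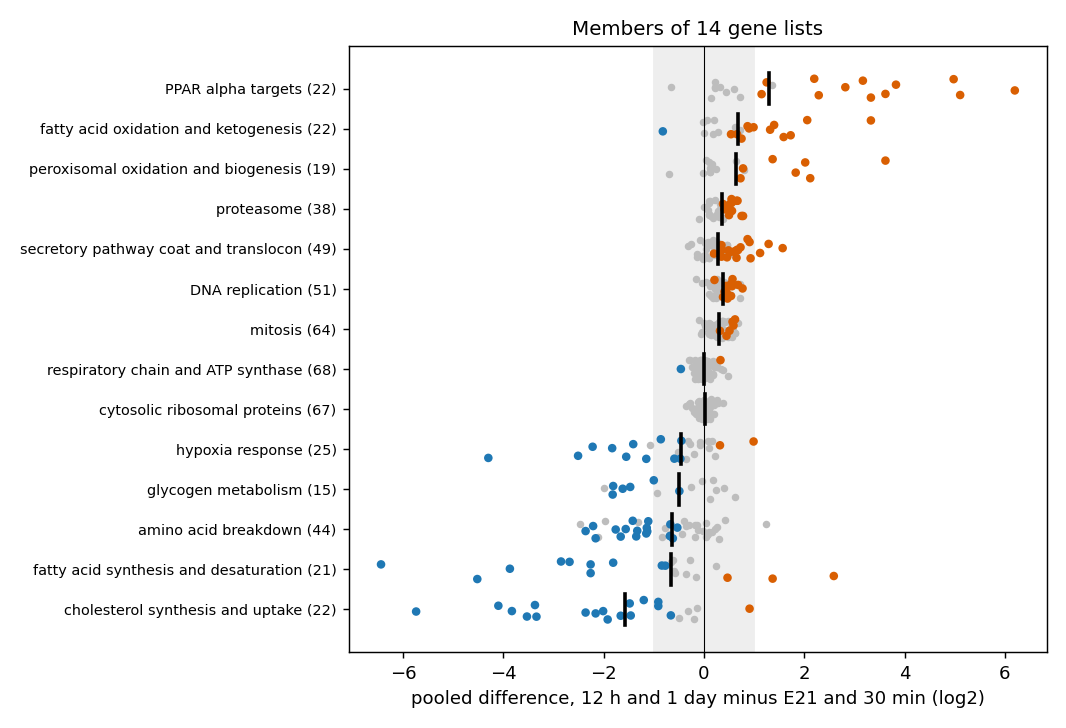
Pooled log2 difference of each measured member of 14 gene lists (number of members in brackets; orange, higher and past the threshold; blue, lower and past it; grey, not past it; bar, list median; shaded band, within 1 log2; height within a line is arbitrary). Cholesterol genes lie mostly to the left of the band and PPAR alpha targets to the right, while all called proteasome and DNA replication genes lie inside it.

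The proteasome is the barrel that degrades ubiquitin-tagged proteins. Of its 38 measured subunits and activators 14 rose and none fell, all 14 by less than 1 log2, and 37 of the 38 differences were positive, with a median of 0.36. Psmd1, a scaffold of the regulatory cap, read 11.78, 11.91 and 12.31 before and 12.51, 12.78 and 13.05 after (0.78 ± 0.11, adjusted p = 0.000309). Psme3, the nuclear activator, rose by 0.75 ± 0.10 (adjusted p = 0.000118), from 11.12, 11.65 and 11.80 to 12.20, 12.28 and 12.56. Psmc5, an ATPase of the cap, rose by 0.55 ± 0.08 (adjusted p = 0.000486), from 8.42, 8.65 and 8.82 to 9.01, 9.12 and 9.41. The other 11, chosen because they passed, lay between 0.38 (Psma4) and 0.67 (Psmd14), and they came from the catalytic core (Psma4, Psma7, Psmb2) and the cap (Psmc1, Psmc4, Psmd2, Psmd3, Psmd7, Psmd12, Psmd13, Psmd14). The immunoproteasome subunits Psmb8 (0.01), Psmb9 (−0.10) and Psmb10 (0.52) did not pass, nor did the activators Psme1 (0.31) and Psme2 (0.11). Leaving out single arrays gave 11 to 19 proteasome genes higher and a median of 0.30 to 0.43.

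Of 49 genes of protein entry into the ER and of vesicle coats, 18 rose and none fell, with a median of 0.29, and 15 of the 18 rose by less than 1 log2. Sec24a, a coat subunit that selects cargo leaving the ER, read 11.62, 12.24 and 12.66 before and 13.28, 13.84 and 14.20 after (1.57 ± 0.17, adjusted p = 2.6e-05). Its partner Sec23a rose by 1.29 ± 0.22 and Sec22b, a membrane fusion protein of the same route, by 0.61 ± 0.10. Among the others, chosen because they passed, were the coat proteins of the return route Copb1 (0.68), Copb2 (0.73) and Copg1 (0.87), and the cargo receptors Mia2 (0.66) and Mia3 (0.65). Of 28 ER chaperones and folding enzymes 3 were higher and 4 lower, with a median of 0.02. The number lower was 1 with 1 mean per pool, 1 without any of 30 min replicate 1, 12 h replicate 3 and 1 day replicate 3, and 2 without any of E21 replicate 3, 30 min replicates 2 or 3, 12 h replicates 1 or 2 and 1 day replicate 2. Edem1, which hands misfolded glycoproteins to disposal, fell by 2.45 ± 0.27 on the log2 scale (adjusted p = 3.22e-05). Txndc5, a disulfide isomerase, rose by 0.71 ± 0.11 and Derl2, a component of the disposal channel, by 0.72 ± 0.13.

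Autophagy and lysosome genes rose in 9 of 44 and fell in 3, beside 6.97% of all genes higher and 4.2% lower. All 9 rises were under 1 log2, and leaving out single arrays gave 6 or 7 higher. Becn1, beclin 1, a core subunit of the lipid kinase that starts autophagosomes, read 6.89, 7.15 and 7.32 before and 7.61, 7.77 and 7.89 after (0.65 ± 0.07, adjusted p = 3.31e-05). Ulk2, a kinase that starts autophagy, rose by 0.67 ± 0.10 and Scarb2, a lysosomal membrane protein, by 0.85 ± 0.14. Gabarapl1, which tags autophagosome membranes, fell by 2.08 ± 0.47 on the log2 scale and Atg14, a partner of beclin 1, by 0.38 ± 0.08.

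DNA replication genes rose in 13 of 51 and fell in none, all by less than 1 log2, with a median of 0.38. Rfc5, a subunit of the clamp loader, read 6.84 to 7.23 before and 7.43 or more on every later array, with medians of 7.04 and 7.85 (0.77 ± 0.10, adjusted p = 0.000205). Rpa2, which covers single-stranded DNA, rose by 0.45 ± 0.09 and Gmnn, which keeps origins from firing again, by 0.38 ± 0.08. The list median was 0.19 for 12 h against E21 and 0.53 for 1 day against 30 min, and the difference between these was not tested. The count was 9 to 20 when single arrays were left out, the 20 without 12 h replicate 3. Mitosis genes had a median of −0.07 for 12 h against E21 and 0.65 for 1 day against 30 min. The list as a whole was thus not higher at 12 h than at E21. In the pooled comparison 6 of 64 rose (9.4%), close to the background, although 61 of the 64 differences were positive with a median of 0.30. That count ran from 1 without 12 h replicate 1 to 11 without 12 h replicate 3, and it was 2 or 3 without E21 replicate 3, 30 min replicates 2 or 3, 12 h replicate 2, or 1 day replicates 1 or 3. Ccnd1, cyclin D1, rose by 1.64 ± 0.21 (adjusted p = 0.000141), from 6.69, 7.26 and 7.41 to 8.06, 8.88 and 9.33. Cdkn1c, an imprinted inhibitor of the cell cycle, fell by 2.71 ± 0.40 on the log2 scale.

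Of the 16 genes with the smallest adjusted p among moderate differences, only Becn1 and Dgat1 belong to a list. Ppfibp1, liprin beta 1, a scaffold protein, read 8.65, 8.79 and 8.89 in the earlier pool and 9.45, 9.72 and 10.08 in the later pool (0.93 ± 0.07, adjusted p = 1.53e-06), a 1.91-fold rise. Gtf2a1, a subunit of the general transcription factor TFIIA, rose 1.99-fold (log2 1.00 ± 0.10), from 10.09, 10.29 and 10.32 to 10.79, 11.24 and 11.52. Ppip5k2, a kinase of inositol pyrophosphates, rose by 0.91 ± 0.10, from 10.73, 10.98 and 11.35 to 11.77, 11.93 and 12.03. The rule that chose these genes asked for pools that do not overlap. Paqr3, a Golgi protein that holds the kinase Raf-1, rose by 0.88 ± 0.10 (adjusted p = 5.05e-05), but its age pairs gave 1.29 for 12 h against E21 (adjusted p = 0.000101) and 0.46 for 1 day against 30 min (adjusted p = 0.0858). Pik3r3, a regulatory subunit of phosphoinositide 3-kinase, was dim in the earlier pool (5.94 to 6.23) and rose by at least 0.33. Pde6c was dim in both pools, so no size is given.

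Among the falling genes of this set, Rad52, a protein of recombination repair, read 7.48, 7.88 and 8.06 before and 6.69, 6.90 and 7.00 after (−0.92 ± 0.07, adjusted p = 1.39e-06). The heparan sulfate genes Hs3st3a1, a sulfotransferase, and Sdc2, the core protein syndecan-2, fell by 0.92 ± 0.10 and 0.72 ± 0.08 on the log2 scale. Hs3st3a1 went from 9.07, 9.46 and 9.62 to 8.01, 8.43 and 8.82. Sdc2 went from 12.92, 13.05 and 13.31 to 12.10, 12.30 and 12.76. Smoc1, a calcium-binding matrix protein, fell by 0.94 ± 0.11, from 11.11, 11.26 and 11.45 to 9.95, 10.39 and 10.61. Slx4, a scaffold of DNA repair nucleases, fell by 0.89 ± 0.10 and Zfat, a zinc finger protein, by 0.77 ± 0.09. Cdc42ep4, an effector of the GTPase Cdc42, was dim in the later pool and fell by at least 0.39. The annotation names the remaining member Bcl2l1-ps1, a pseudogene (−0.93 ± 0.11), and whether its probes read Bcl2l1 was not tested.

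**Figure D4:**
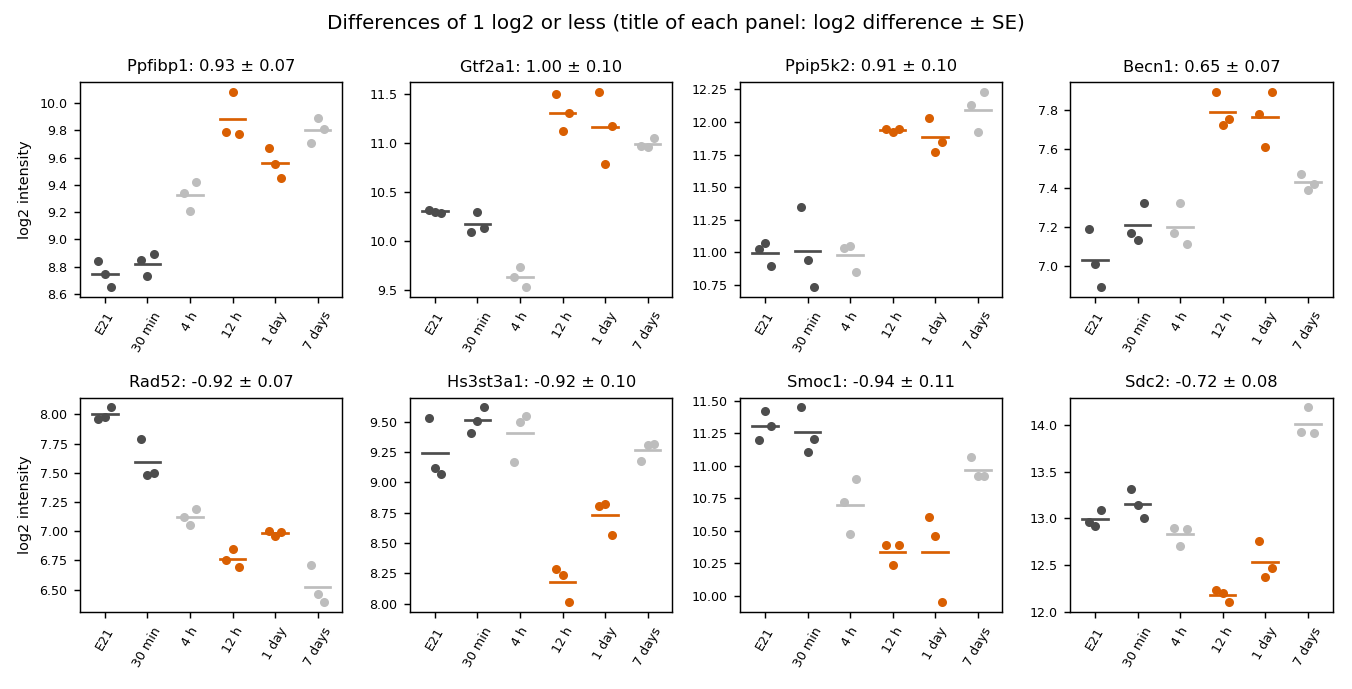
Log2 intensity of 8 genes with a pooled difference under 1 log2 (Gtf2a1 rounds to 1.00) on each of the 18 arrays, drawn as for the genes of large change. By the rule of choice the 6 orange points are clear of the 6 dark points in each panel, and at 7 days Sdc2 lies above both pools.

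Hypoxia genes fell in 11 of 25 and rose in 2. The list median was −0.12 for 12 h against E21, −0.76 for 1 day against 30 min and 0.39 for 30 min against E21. After Hif3a, Bnip3, a mitochondrial protein of mitophagy, read 12.05, 12.26 and 12.71 before and 9.49, 9.86 and 11.55 after (−2.22 ± 0.29, adjusted p = 0.000157). Egln3, an oxygen-sensing prolyl hydroxylase, fell by 2.51 ± 0.34 on the log2 scale. With 1 mean per pool, where the difference between E21 and 30 min counts as error, 6 of the list fell. Glucocorticoid-induced genes fell in 7 of 20 and rose in 1. Here the list median was −0.16 for 12 h against E21, −0.57 for 1 day against 30 min and 0.47 for 30 min against E21. In both lists the median thus lay further below 30 min than below E21, and this contrast was not tested. Klf15 was dim in the later pool and fell by at least 1.44. Zbtb16, a zinc finger repressor, fell by 1.87 ± 0.24 on the log2 scale and Per1, also a clock gene, by 1.99 ± 0.25. Hsd11b1, which regenerates active glucocorticoid, was the member that rose (0.81 ± 0.13). With 1 mean per pool 4 of this list fell.

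Of 17 clock genes 6 rose and 4 fell, and age differed between and within the pools while the hour of sampling is not in the labels. Per1 and Bmal1 (−1.23 ± 0.19) fell, and Per3 (1.11 ± 0.20), Nr1d2 (1.27 ± 0.23) and Dbp (at least 0.54) rose. The earlier pool of Per3, at 6.34 to 6.83, lay around the dim level of 6.66, so its size is uncertain. Thrb, the thyroid hormone receptor beta, fell by 1.93 ± 0.14 (adjusted p = 7.3e-07), from a median of 10.36 to one of 8.47, and its highest later array (8.92) lay below every earlier one. Il6st, the shared signal subunit of interleukin-6 receptors, fell by 2.15 ± 0.22 (adjusted p = 2.17e-05) and Il6r, its ligand-binding partner, by 1.26 ± 0.22. Peg3, an imprinted zinc finger gene, rose by 1.86 ± 0.19, from 11.66, 12.40 and 12.76 to 13.75, 14.12 and 14.70. Atf5, a stress-responsive transcription factor, rose by 1.85 ± 0.23. Por, which passes electrons to cytochromes P450, rose by 2.25 ± 0.29, and 7 of 31 genes of the P450 list rose and 1 fell.

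Immediate early genes, which answer growth factors and stress within minutes, fell in 7 of 34 and rose in 1. In both pools 17 of the 34 were dim. The list median was 0.06 for 12 h against E21 and −0.5 for 1 day against 30 min. For 30 min against E21 it was 0.63, so the list as a whole was not lower at 12 h than at E21. Zfp36, which destabilizes cytokine RNA, fell by 2.46 on the log2 scale (adjusted p = 2.05e-05). With 1 mean per pool 1 member fell, and 4 fell without any of E21 replicate 2, 30 min replicate 3, 12 h replicates 1 or 3 and 1 day replicate 1. Of 38 interferon-stimulated genes 6 passed as lower and none as higher, with a median of −0.27, and 17 of the 38 were dim in both pools. Of the 6, Dhx58, Ifi44, Mx1 and Oasl lay at the dim level, with bounds of 0.00 or −0.01, so no fall can be read for them. Irf9, a partner of the STAT factors, fell by 0.44 on the log2 scale (adjusted p = 0.0476). The number lower was 2 without any of E21 replicate 2, 30 min replicates 2 or 3 and 12 h replicates 1 or 3, and 3 without E21 replicate 3 or 1 day replicates 1 or 3. Ifih1, a sensor of viral RNA, fell by 1.15 on the log2 scale (adjusted p = 0.000142).

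None of the 67 cytosolic ribosomal proteins passed in limma, and their median was 0.03. Of 68 genes of the respiratory chain and ATP synthase 1 was higher and 1 lower, with a median of 0.01. Mitochondrial ribosomal proteins had 4 of 73 higher and 2 lower. These shares lie below the 11.2% of all genes.

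The labelled tissue was checked against 13 hepatocyte markers. Their mean levels in the earlier pool ran from 7.55 (Serpina1) to 19.93 (Alb and Ahsg), and none passed in limma. Alb, Ahsg and Fgb lay at or near the ceiling, so no sum over the list is given. Below the ceiling, Hnf4a, a transcription factor of hepatocyte identity, differed by 0.50 ± 0.19 (adjusted p = 0.106) and Apoa1, a plasma apolipoprotein, by 0.40 ± 0.14 (adjusted p = 0.081). Erythroid markers, from the blood-forming cells of fetal liver, had 1 of 28 lower and a median of −0.03. The globins Hba-a1 and Hbb-b1 were at or near the ceiling and can show no change. The erythroid transcription factors Gata1 and Klf1 differed by −0.03 ± 0.28 and −0.04 ± 0.24, and Slc4a1, the anion exchanger of red cells, by 0.04 ± 0.26. The 1 that fell was Hbe1, an embryonic globin (−2.17 ± 0.56, adjusted p = 0.0195), and without 12 h replicate 1 none fell. Of 13 platelet and megakaryocyte markers 4 were lower and none higher, with a median of −0.66 and sums of 19900 to 62500 before and 18600 to 30700 after. The number lower was 2 without any of E21 replicates 1 or 2 and 12 h replicates 1 or 2, and 9 without 30 min replicate 1. Clec1b, a platelet receptor also made by sinusoidal endothelium, fell by 0.78 ± 0.11 (adjusted p = 0.000355). Of 18 stellate cell markers 1 rose, Pdgfrb, a growth factor receptor (1.12 ± 0.16), and no other passed. Only 5 of the 18 differences were positive, and the list median was −0.20. The part of these cells in the falls described above was not tested.

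The age pairs, 12 h against E21 and 1 day against 30 min, differed for 2 genes in a limma test of the difference itself, and 1448 had an unadjusted p under 0.05. Nr1d1, the clock repressor REV-ERB alpha, read 8.59, 8.09 and 9.12 at 12 h, but 5.64, 5.81 and 5.83 at 1 day, within its earlier range of 5.61 to 6.69. Its pooled rise of 1.15 ± 0.23 thus comes from the 12 h arrays. The 1 day arrays of Nr1d1 and all its earlier arrays but the highest were dim, so the size is uncertain. Tgfa, a ligand of the EGF receptor, read 8.65, 8.63 and 8.84 at 12 h and 7.57, 7.50 and 7.43 at 1 day, above its earlier range of 6.77 to 7.27. Egfr itself fell by 2.29 ± 0.17 on the log2 scale in the pooled comparison (adjusted p = 1.07e-06). It read 10.02, 10.09 and 10.56 at 12 h and 11.97, 11.42 and 12.47 at 1 day, below the earlier range of 13.11 to 13.62. These 3 genes were chosen after their values were seen, for their difference within the later pool.

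The 4 h arrays, which entered neither pool, lay mostly with the earlier ages. Of the 926 called genes whose pools did not overlap, all 3 arrays of 4 h were beyond the earlier pool in the direction of change for 95 and inside it or on its other side for 447. The median gene had covered 10.9% of the pooled difference at 4 h. In cholesterol synthesis the 15 such genes had covered −0.6%, with none beyond the earlier pool, and in PPAR alpha targets 10 genes had covered 4.1%. Amino acid breakdown stood at 40.7% (13 genes). Lpin1 read 15.92 to 16.43 at 4 h, against a highest earlier array of 15.94. Rad52 and Ppfibp1, with 7.12 and 9.32 at 4 h, lay between the pools.

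By 7 days 4430 genes (23.4%) differed from the later pool, a comparison that shares the 12 h and 1 day arrays with the pooled one. On 7 days replicate 3 the 14 pancreas markers had a median of 2.86 relative to the earlier pool. It was 0.03 and 0.1 on replicates 1 and 2, and 3 of the 14 passed as higher at 7 days. Without replicate 3, 3542 genes passed. The part of this pancreas signal in the 7-day differences below was not tested. Cholesterol genes were higher at 7 days than at 12 h and 1 day in 17 of 22, with a median of 1.34, beside the pooled median of −1.57. Amino acid breakdown was higher in 14 of 44 and lower in 1. PPAR alpha targets were lower in 10 of 22 and higher in 1, with a median of −0.48. DNA replication was lower in 41 of 51 and mitosis in 62 of 64. Proteasome genes were lower in 9 of 38 and higher in 1, with Psme3 among the lower ones (adjusted p = 5.85e-07). Sdc2 was higher at 7 days by 1.66 (adjusted p = 1.1e-07), and Smoc1 by 0.63 and Hs3st3a1 by 0.81 were higher too.

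**Figure D5:**
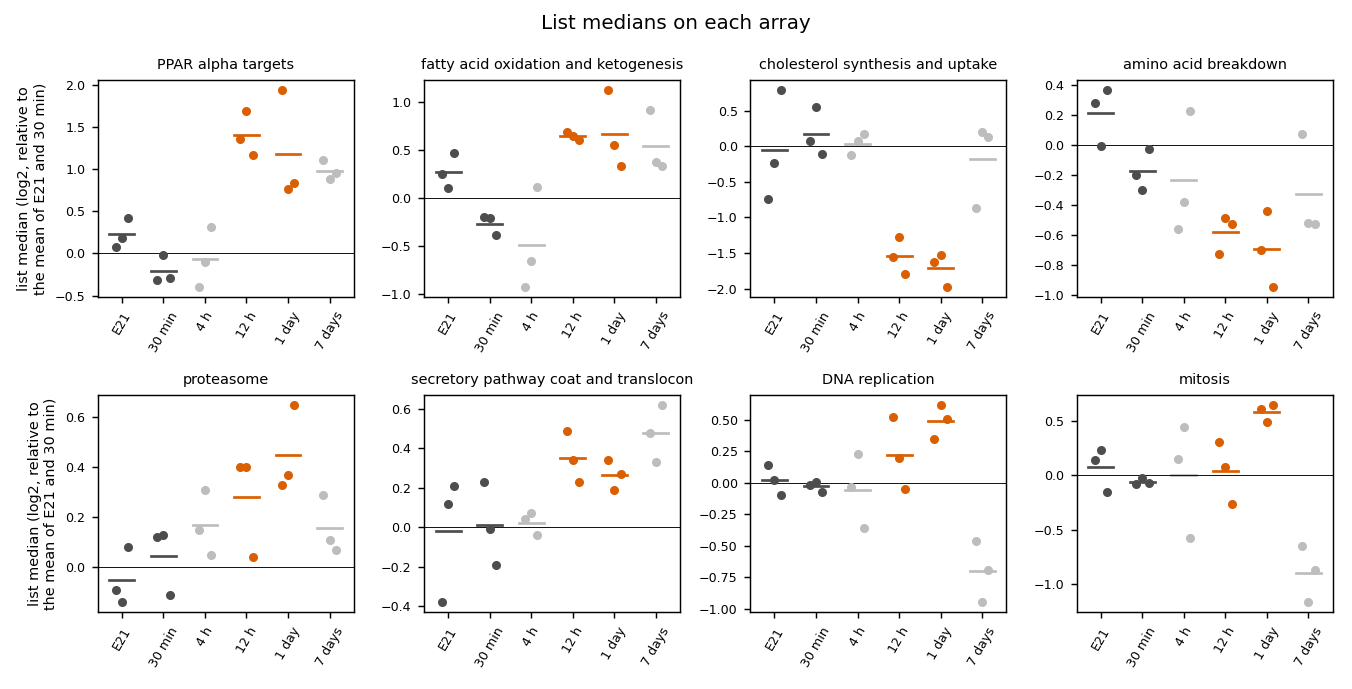
Median over the members of 8 lists on each array, in log2 relative to each gene's mean over the 6 earlier arrays (points, arrays; lines, age means; dark grey, E21 and 30 min; orange, 12 h and 1 day; light grey, 4 h and 7 days). The cholesterol median lies between −1.98 and −1.27 on the orange arrays and between −0.87 and 0.20 at 7 days, and the mitosis median is 0.49 to 0.65 at 1 day against −0.26 to 0.31 at 12 h.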

How the data were processed

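Total RNA from whole liver was hybridized to 18 Affymetrix Rat Transcriptome 1.0 arrays. The authors deposited linear intensities per transcript cluster, a probe set covering a gene, from 4.24 to 999969. The submitters' processing notes list RMA and Affymetrix Expression Console 1.0 without saying what each did to these deposited intensities. The annotation release was not given in the sources used here. Values above 65535, the limit of a 16-bit scanner, occurred for 272 to 328 features per array, so folds are those of the deposited scale. The log2 of each intensity was taken with no constant.

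Of 24753 features 19837 carried 1 gene symbol, 420 several and 4496 none, and the last 2 kinds were not tested. The brightest cluster was used for 800 genes with more than 1, leaving 18926 genes. The deposited intensities on the log2 scale went into limma 3.58.1 (R 4.3.3), which estimated 1 mean for each age from 18 arrays (12 residual and 3.05 prior degrees of freedom), two-sided, with Benjamini-Hochberg adjustment over all genes and a threshold of 0.05. The pooled contrast is the mean of the 12 h and 1 day means minus that of E21 and 30 min. The number of arrays limits precision. The fit was tested on simulated data with known changes.

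The 57 gene lists (1725 entries, 1595 matched, 6 by synonym) were made with earlier results of these data known, as were the comparison and the rules. Genes named are the 8 largest called differences in each direction with pools that do not overlap and a brighter pool above the median gene, the 8 moderate ones (under 1 log2, no overlap) with the smallest adjusted p in each direction, up to 3 called members per list and direction, and Alb, Afp, Pck1 and G6pc1. Others are said to be chosen after their values were seen, or named for another stated reason. The dim level of 6.66, the difference between the 2 age pairs and the omission of 2 arrays together were added after the data were seen. Replicate numbers in the titles have no stated meaning. For arrays with the same number, deviations from the age means had correlations of 0.169 to 0.263 for 30 min with 12 h, but −0.398 to −0.107 for E21 with 30 min, so the numbers are not shown to pair arrays.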

Additional observations from a re-analysis of the deposited data

Results flagged for a closer look

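Over 207 named genes and both pools, 22 of 414 sets of 6 arrays (5.31%) had 1 array far from the other 5 by Dixon's test, where chance gives about 1 in 20. Values are log2 intensities. In the earlier pool these were Slc34a2 at 6.43 on 30 min replicate 1 (the other 5 at 6.93 to 7.18), Acot1 at 7.63 on E21 replicate 2 (the other 5 at 5.62 to 6.35) and Cyp3a23-3a1 at 10.89 on E21 replicate 2 (the other 5 at 13.59 to 14.90). Others in that pool were Scd2 at 14.98 on E21 replicate 1 (the other 5 at 17.25 to 18.46), Lpin2 at 10.50 on E21 replicate 3 (the other 5 at 10.90 to 11.13) and Aurka at 8.22 on 30 min replicate 3 (the other 5 at 8.53 to 8.71). The rest of that pool was Srf at 8.90 on 30 min replicate 3 (the other 5 at 8.09 to 8.25) and Cd14 at 6.99 on 30 min replicate 2 (the other 5 at 6.12 to 6.33). In the later pool these were Slc34a2 at 10.65 on 1 day replicate 2 (the other 5 at 13.22 to 14.45), Lpin1 at 8.68 on 1 day replicate 3 (the other 5 at 10.36 to 11.20) and Msmo1 at 9.31 on 12 h replicate 3 (the other 5 at 10.07 to 10.50). Others there were Fah at 13.90 on 1 day replicate 3 (the other 5 at 14.46 to 14.70), Atp8b1 at 9.24 on 1 day replicate 2 (the other 5 at 9.98 to 10.37) and Ephx1 at 15.42 on 1 day replicate 2 (the other 5 at 15.91 to 16.11). A further set was Rrs1 at 8.44 on 1 day replicate 3 (the other 5 at 7.21 to 7.55), Atf6 at 12.43 on 1 day replicate 2 (the other 5 at 12.71 to 12.88) and Fgf21 at 10.92 on 1 day replicate 3 (the other 5 at 5.17 to 6.45). Still others were Nbr1 at 13.80 on 1 day replicate 1 (the other 5 at 12.99 to 13.26), Cdc25c at 6.91 on 12 h replicate 3 (the other 5 at 7.23 to 7.32) and Ppard at 7.75 on 12 h replicate 2 (the other 5 at 7.44 to 7.55). Alb and Afp, at the ceiling, read 19.92 on 12 h replicate 3 and 19.93 on the other 5 arrays.

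The change from 30 min to 1 day differed from that between E21 and 12 h, in a limma test of the difference, for Nr1d1 by −3.23 ± 0.459 (adjusted p = 0.0368) and for Tgfa by −1.46 ± 0.173 (adjusted p = 0.00805).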

How the results depend on the processing

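The pooled count of 2114 genes was 1622 to 2054 when single arrays were left out, and 1766 to 2977 in the other settings (array weights, the higher). Of the 207 named genes in 4761 gene-by-setting results, none changed direction, 351 lost the call and 3 gained it. Of these genes 203 were named because they had passed on the same arrays, so a change of direction was unlikely from the start. With the replicate block 2042 genes passed, and in 12 h against E21 1043 and in 1 day against 30 min 822. Quantile normalization lowered the share of higher calls from 62.4% to 53.5%. Without E21 replicate 1 and 30 min replicate 3 together, 1696 passed.

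Counts of smaller comparisons moved more. With array weights 12 h against E21 gave 2217 genes, 1 day against 12 h 13 and 30 min against E21 15. The replicate block left 4 between 1 day and 12 h. Leaving out single arrays gave 620 to 945 for 12 h against E21, 470 to 684 for 1 day against 30 min, 3 to 12 for 1 day against 12 h, 0 to 8 for 30 min against E21 and 2923 to 4405 for 7 days against the later pool. The lowest 7-day count came without 7 days replicate 2. DNA replication genes higher were 28 with array weights. Some omissions raised a count, as for 30 min against E21 without E21 replicate 1 (8) and 1 day against 12 h without 1 day replicate 2 (12). The cause was not tested.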
